A study of Mus musculus with 6 samples.

Results

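The 7 genes of the P2X receptors (P2rx1 to P2rx7) and the 3 pannexin genes (Panx1, Panx2 and Panx3) were examined in mouse BMMSCs after knockdown of Tet1 and Tet2. Members were taken by gene symbol, and all 10 were found, in 1 row each, among the 36870 distinct symbols of the deposited table. RNA-seq was available for 3 control libraries and 3 Tet1/Tet2 siRNA libraries (siTet1/Tet2). Both groups were cultures of bone marrow of mice labelled C57BL/6, washed free of non-adherent cells at 48 h and kept as adherent culture for 14 days, at passage 2 by the sample labels and passage 1 by the methods. The siRNA group received siRNAs against Tet1 and Tet2 together, so that an effect of either knockdown alone cannot be told apart here. The controls received a non-targeting siRNA by the labels, whereas the sequencing methods call them vehicle-treated. The age of the mice, the number of animals behind a culture and the time between transfection and harvest are not given in the sources used here, and p-values therefore measure the spread between these libraries, which may be technical. Levels are given as RPKM, the reads on a gene per unit of its length, scaled to the mapped reads of the library, which can be compared between genes.

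P2X receptors are cation channels of the cell surface that open when extracellular ATP binds, and each channel is built of several P2X subunits. P2X7 differs from its paralogs in its long intracellular tail and in its need for high ATP, and its opening in macrophages leads to potassium efflux, inflammasome activation, membrane blebbing and vesicle shedding. In bone, P2X7 is known from osteoblasts, osteoclasts and stromal cells. Pannexins are large-pore channels through which cells release ATP, and can thereby supply the ligand of P2X receptors. The comparison asked which of these channels accompany P2rx7, the receptor gene the study followed as a target of Tet1 and Tet2.

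The table gives no read totals. By the depth at which low RPKM values came closest to whole reads, the libraries held between 32400000 and 38500000 reads, with 49.8% to 56.5% of the low values within 0.1 of a whole number, so that the depth is an estimate. The controls held Tet2 at 2.57, 4.08 and 3.71 RPKM against 0.358, 0.238 and 0.202 RPKM after siRNA, and all 3 siRNA libraries were below every control. Tet1 was at 0.032, 0.098 and 0.05 RPKM in the controls and at 0.001, 0.01 and 0.001 RPKM after siRNA. Its siRNA values were below every control but at or near the lowest listed value of 0.001 RPKM. With a mean under 0.1 RPKM Tet1 was not tested, so these values say little about its knockdown. Macrophage genes were abundant in all 6 libraries, with Csf1r, the macrophage growth factor receptor, between 478 and 619 RPKM and Ptprc, the gene of CD45, between 47.2 and 59.3 RPKM. Among the stromal markers, Col1a1 stood at 394 to 655 RPKM in the controls, while Thy1, the gene of CD90, did not exceed 0.146 RPKM in any library. The cultures thus held transcripts of macrophages beside those of stroma. The paper's flow cytometry, which measured protein on BMMSCs of control and double knockout mice, found CD90 present and CD45 absent. The name BMMSCs, used here as in the paper, stands for these cultures as a whole. In such bulk libraries, fewer cells of a type and less RNA per cell cannot be told apart.

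P2rx7 was lower in Tet1/Tet2 siRNA-treated BMMSCs. Its level was 32.1, 29.7 and 32.9 RPKM in controls 1 to 3 and 5.85, 7.90 and 7.80 RPKM in siRNA replicates 1 to 3. The groups did not overlap, and the lowest of the 3 siRNA values was that of siRNA replicate 1. The mean was 77.2% lower, a 4.39-fold difference of the group means. Log2(RPKM + 1) was compared between the groups for the 13266 genes averaging 0.1 RPKM or more. On this scale P2rx7 changed by -2.00 with a standard error of 0.11, and the limma p adjusted over all these genes by Benjamini-Hochberg was 7.05e-06. By this value P2rx7 was ranked 167 of the 13266 genes tested, counted from the largest decrease. P2rx7 lies on the forward strand of chromosome 5 of GRCm38 (122643911 to 122691432). No methylation was measured in these libraries. The promoter of P2rx7 is shown because the study concerns its methylation, together with those of P2rx4 and Panx1, whose transcripts moved the other way. Each is the RefSeq sequence on GRCm38.p6, from 250 bases before to 50 bases after the annotated start, 5′ to 3′ on the gene's own strand, with the dinucleotide CG, the site of DNA methylation, in capitals. The windows are chr5:122643677-122643976 on the forward strand for P2rx7, chr5:122707294-122707593 on the forward strand for P2rx4 and chr9:15045429-15045728 on the reverse strand for Panx1.
P2rx7: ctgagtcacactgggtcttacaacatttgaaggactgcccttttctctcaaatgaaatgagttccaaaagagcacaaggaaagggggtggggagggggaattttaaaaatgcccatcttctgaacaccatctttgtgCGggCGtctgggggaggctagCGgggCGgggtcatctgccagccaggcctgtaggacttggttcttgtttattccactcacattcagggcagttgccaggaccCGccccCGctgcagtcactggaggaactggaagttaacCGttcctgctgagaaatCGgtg
P2rx4: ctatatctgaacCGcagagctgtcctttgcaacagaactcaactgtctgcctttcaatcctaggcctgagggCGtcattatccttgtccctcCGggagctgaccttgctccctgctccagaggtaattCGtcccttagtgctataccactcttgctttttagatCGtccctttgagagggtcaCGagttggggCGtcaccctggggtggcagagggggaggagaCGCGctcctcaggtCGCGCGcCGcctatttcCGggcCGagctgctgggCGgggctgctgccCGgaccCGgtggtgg
Panx1: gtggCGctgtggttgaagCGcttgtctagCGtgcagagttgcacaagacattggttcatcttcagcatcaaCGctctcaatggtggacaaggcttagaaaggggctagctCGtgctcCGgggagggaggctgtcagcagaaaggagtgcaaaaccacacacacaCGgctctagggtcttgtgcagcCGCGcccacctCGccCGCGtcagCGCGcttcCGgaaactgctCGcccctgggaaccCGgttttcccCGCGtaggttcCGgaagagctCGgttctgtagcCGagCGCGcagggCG
The P2rx7 window held 8 CG, close to the median of 7 over the 32851 promoter windows of the table, and 48.6% of all windows held as many or more. The observed number was 0.38 of that expected from the C and G content. The paper reports a CpG island in the P2rx7 promoter, bound by Tet1 and Tet2. It also reports more methylation of this promoter in BMMSCs of Tet1 and Tet2 double knockout mice. Hydroxymethylcytosine, the product of Tet oxidation, was reported lower there in these and in Tet1/Tet2 siRNA-treated BMMSCs. The paper reports lower P2rx7 in both as well, and names it among the altered genes of its RNA-seq. The position of that island is not given in the sources used here and may lie outside this window, so these counts do not bear on it. The P2rx4 window held 18 CG (29.7% of windows with as many or more, observed over expected 0.659) and the Panx1 window 25 CG (18.4% of windows with as many or more, observed over expected 0.889). CG reads the same on both strands, and 94.6% of all windows held at least 1. A second annotated start of P2rx7 (window chr5:122650133-122650432) held 4 CG. Windows were also found for P2rx1, with 7 CG, and P2rx6, with 3 CG. P2rx2, P2rx3, P2rx5, Panx2 and Panx3 had none in the table.

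P2rx4, the paralog next to P2rx7 and a channel of macrophage lysosomes and surfaces, was higher after the knockdown. Controls 1 to 3 held 84.0, 77.0 and 71.2 RPKM and siRNA replicates 1 to 3 held 106, 105 and 101 RPKM. Every siRNA library was above every control. The mean rose by 34.4%, from 77.4 ± 6.41 to 104 ± 2.69 RPKM (SD, n = 3 each), or by 0.42 ± 0.07 (standard error) on the log2 scale (limma, adjusted p = 0.00172). P2rx4 had the highest level of the 10 members in both groups, and the other P2X genes stood far below P2rx4 and P2rx7.

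With P2rx7 lower and P2rx4 higher, the summed P2X level overlapped between the groups. The 7 genes summed to 117, 107 and 105 RPKM in the controls and to 112, 113 and 109 RPKM in the siRNA libraries (exact permutation test, two-sided, p = 0.6, 3 against 3 libraries). The composition of the sum differed. P2rx7 made up 27.5%, 27.8% and 31.4% of it in the controls and 5.20%, 6.98% and 7.13% in the siRNA libraries, a difference of -22.5 percentage points (exact permutation p = 0.1, the smallest that 3 against 3 libraries can give). In the same libraries P2rx4 stood at 2.62, 2.59 and 2.17 times the RPKM of P2rx7 in the controls and at 18.2, 13.3 and 12.96 times in the siRNA libraries. A ratio within a library does not depend on the scaling of that library. The 5 remaining P2X genes together contributed between 0.326 and 0.555 RPKM in any library.

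**Figure D1:**
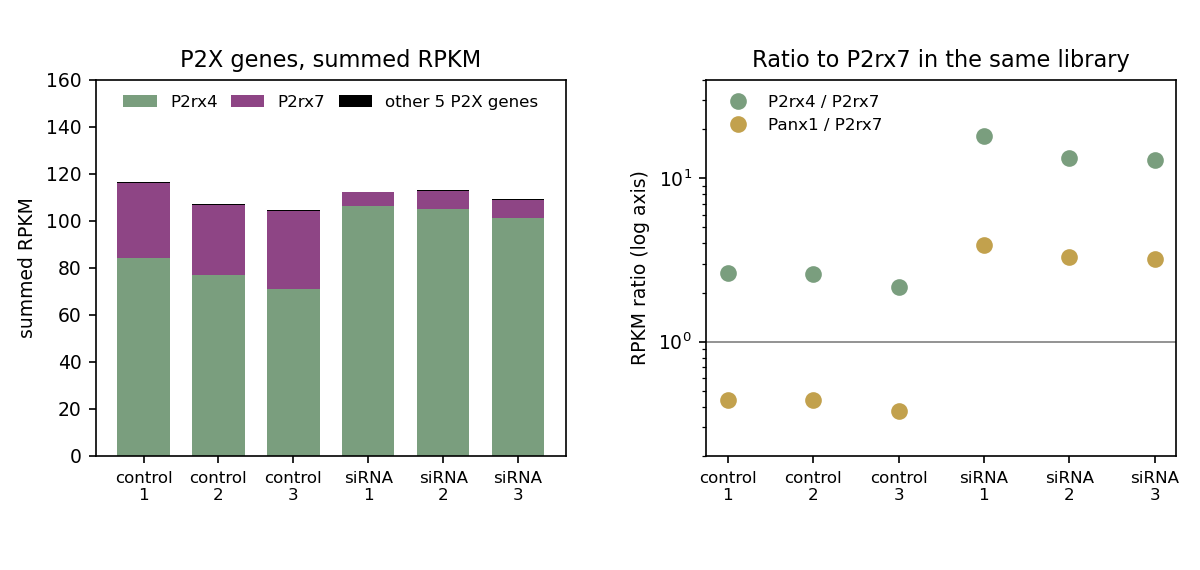
Left, summed RPKM of the 7 P2X genes in each library as stacked bars (P2rx4 green, P2rx7 purple, the other 5 black). Right, RPKM of P2rx4 and of Panx1 divided by that of P2rx7 in the same library, on a log axis with the line at 1. The bars reach similar heights in both groups with a smaller P2rx7 part in the siRNA libraries, and the Panx1 ratio lies below 1 in the 3 controls and above 1 in the 3 siRNA libraries.

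Panx1, the broadly expressed pannexin and an ATP release channel of macrophages, stood at 14.1, 13.1 and 12.4 RPKM in controls 1 to 3 and at 22.9, 26.1 and 25.1 RPKM in the siRNA libraries. The groups were well apart. The mean was higher by 87.1%, or by 0.86 ± 0.08 (standard error) on the log2 scale (limma, adjusted p = 6.95e-05), the 219th largest increase of the genes tested. In the controls Panx1 was below P2rx7, at 0.439, 0.44 and 0.378 of its RPKM. In the siRNA libraries the order was turned, with Panx1 at 3.91, 3.30 and 3.22 times the RPKM of P2rx7. The ratio of P2rx4 to Panx1 went from between 5.72 and 5.98 to between 4.02 and 4.65, without overlap (exact permutation p = 0.1, the smallest possible). Panx2, known from neurons, did not exceed 0.018 RPKM, and Panx3, known from osteoblasts and chondrocytes, did not exceed 0.067 RPKM in any library. For Panx3 these values correspond to about 3.01 and 2.02 reads in controls 1 and 2 and to 3.01 and 6.02 reads in siRNA replicates 1 and 3. In control 3 and siRNA replicate 2 Panx3 was at the lowest listed value of 0.001 RPKM. A difference was not detectable at this depth.

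The other P2X genes were at or near the detection limit. P2rx5 was at 0.181, 0.116 and 0.177 RPKM in the controls and at 0.082, 0.079 and 0.233 RPKM in the siRNA libraries, so that siRNA replicate 3 was above all controls and the other two below them. Its log2 fold change of -0.04 (standard error 0.07) did not pass the test (adjusted p = 0.712 from limma). P2rx6, a subunit that rarely forms channels on its own, was at 0.211, 0.079 and 0.206 RPKM in the controls and at 0.122, 0.196 and 0.184 RPKM in the siRNA libraries, a change of 0.00 ± 0.07 (standard error) on the log2 scale (limma, adjusted p = 0.967). Between about 7.28 and 26.5 reads lay behind these values in each library. The small standard errors belong to the scale with 1 added, which shrinks changes at such levels. With a pseudocount of 0.01 the log2 fold changes were -0.39 for P2rx5 and 0.10 for P2rx6 (limma, adjusted p = 0.563 and 0.876). P2rx6 overlaps Slc7a4 on the opposite strand, at 0.749 to 1.43 RPKM, and since the use of strand is not stated the reads of these genes cannot be told apart. P2rx1, a receptor of platelets and smooth muscle, was at 0.011 to 0.049 RPKM, or about 1.02 to 3.97 reads. P2rx2 and P2rx3, receptors of sensory neurons, reached at most 0.089 and 0.102 RPKM, and P2rx3 overlaps Ssrp1 (51.6 to 71.6 RPKM) on the opposite strand. P2rx1, P2rx2, P2rx3, Panx2 and Panx3 were under the minimum mean and were not among the genes tested. When all symbols were tested without a minimum, none of these 5 had an unadjusted p under 0.05, and the lowest was 0.256 for P2rx2.

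**Figure D2:**
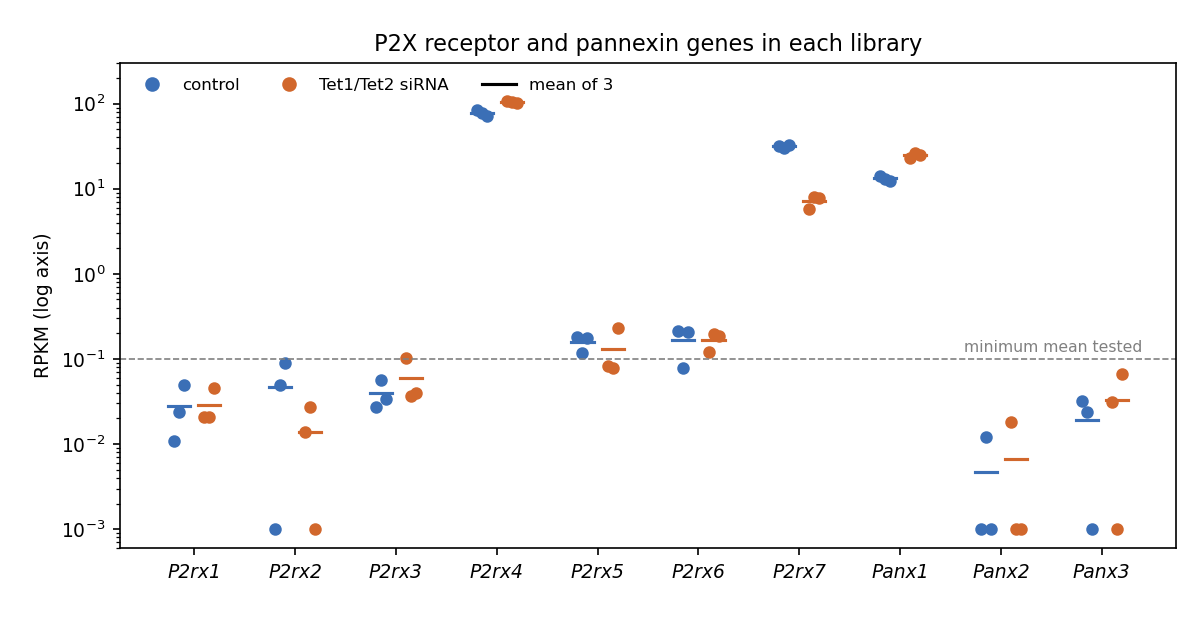
RPKM on a log axis of the 10 member genes in the 3 control (blue) and 3 Tet1/Tet2 siRNA libraries (orange), with a bar at the mean of 3 and a dashed line at the minimum mean of 0.1 RPKM. P2rx4, P2rx7 and Panx1 lie above 5 RPKM in every library and do not overlap between the groups, whereas the other 7 genes lie below 0.25 RPKM and overlap.

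By mean level, the controls were ordered P2rx4 (77.4 ± 6.41 RPKM), P2rx7 (31.6 ± 1.64 RPKM) and Panx1 (13.2 ± 0.814 RPKM; SD, n = 3 each), each apart from the next by more than its spread. In the siRNA libraries the order was P2rx4, Panx1 (24.7 ± 1.65 RPKM) and P2rx7 (7.18 ± 1.15 RPKM). P2rx6 (0.165 ± 0.0748 RPKM) and P2rx5 (0.158 ± 0.0364 RPKM) followed in the controls and did not differ from each other beyond their spread. P2rx2, P2rx3, P2rx1, Panx3 and Panx2 came last, from 0.0467 to 0.00467 RPKM, with overlapping libraries.

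Of the 5 members tested, 3 had an adjusted p under 0.05, with P2rx7 lower and P2rx4 and Panx1 higher. Over all genes tested the share was 44.5%, with 29.8% lower and 14.7% higher, so that the count by itself does not set these genes apart. The RPKM of the groups did not overlap in the same 3 members, against 55.7% of all genes tested. The study asked for p under 0.05 and more than a 2-fold difference. With the unadjusted p of limma, P2rx7 passed these thresholds, against 6.58% of all genes (5.63% lower, 0.95% higher). P2rx4 and Panx1 did not reach a fold change of 2. The median log2 fold change was -0.09 over all genes tested, and quantile normalization moved it by 0.14. The directions of P2rx7, P2rx4 and Panx1 and their adjusted p under 0.05 held under median-ratio scaling, quantile normalization and rescaling to the same sum.

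Whether the paralogs changed differently from P2rx7 was tested with the log2 values of each gene relative to P2rx7 in the same library. All 4 other tested members differed from P2rx7. The difference in log2 fold change was 2.43 for P2rx4 (95% interval 1.97 to 2.88) and 2.86 for Panx1 (95% interval 2.58 to 3.13), and 1.97 for P2rx5 and 2.01 for P2rx6. P2rx5 and P2rx6 did not exceed 0.233 RPKM in any library, so the added 1 held their own changes near 0. Their differences therefore mostly restate the fall of P2rx7 and say little about these 2 paralogs. With the spread of each gene alone, a variance chosen after seeing the data, the adjusted p was 0.000388 for each of the 4 in limma without moderation. The exact permutation p was 0.1 for each, the smallest possible. Since P2rx7 fell more than most genes, 98.7% of all genes differed from it in the moderated test and 98.3% with the spread of each gene alone, and a difference from P2rx7 is therefore not particular to its paralogs. The moderated p-values of this comparison are not given, because the libraries' deviations of P2rx7 enter every gene and that test treats their spread as known.

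The markers of the cell types in culture moved as well. Of the 12 stromal markers tested, 9 were lower and 1 was higher with an adjusted p under 0.05. Over all genes tested, 29.8% were lower and 14.7% higher. The median log2 fold change of the list was -1.92, against -0.09 over all genes. The summed RPKM of the list went from between 1052 and 1504 in the controls to between 199 and 333 in the siRNA libraries. Pdgfra, the stromal growth factor receptor, went from 9.92 ± 1.52 to 0.944 ± 0.145 RPKM, Pdgfrb from 30.2 ± 8.51 to 5.19 ± 1.34 RPKM, Prrx1 from 16.6 ± 1.58 to 5.35 ± 2.26 RPKM and Col1a1 from 488 ± 144 to 72.1 ± 28.5 RPKM (SD, n = 3 each). The log2 fold change of P2rx7, -2.00, lay near the median of this list, but the list was widely spread. Its values ran from -3.20 for Ly6a to 1.67 for Vcam1, and no marker lay between Pdgfrb (-2.32) and Prrx1 (-1.52). Eng and Kitl fell less, by 0.57 and 0.54. Nt5e (-0.22) and Mcam (-0.18) did not pass (adjusted p = 0.0869 and 0.162 from limma). Vcam1 was the marker that rose, from 16.9 ± 0.775 to 55.9 ± 1.81 RPKM. Of the 15 macrophage markers, 6 were higher and 3 were lower, against 14.7% and 29.8% of all genes tested. Their median log2 fold change was 0.20. Their summed RPKM went from between 8634 and 11619 to between 17062 and 20165, and Lyz2, the lysozyme gene, made up much of it, rising from 4439 ± 783 to 11321 ± 1444 RPKM (SD, n = 3 each). The log2 fold change of Lyz2 was 1.36 as reported (limma, adjusted p = 0.001). It was 1.48 under median-ratio scaling and 1.30 with libraries rescaled to the same sum (limma, adjusted p = 0.00184 and 9.5e-05). The call held in all 6 fits that left out 1 library. Under quantile normalization the change was 0.056 (limma, adjusted p = 0.455). That method gives the most abundant genes nearly the same value in every library, so it says little about a gene this abundant. Leaving out one library gave 4 to 7 higher and 2 to 3 lower markers. Cd68 rose from 875 ± 96.0 to 1316 ± 61.3 RPKM (adjusted p = 0.00247 from limma), whereas Fcgr1 fell from 109 ± 10.0 to 27.8 ± 2.53 RPKM (SD, n = 3 each). On the log2 scale Fcgr1 changed by -1.93, closer to P2rx7 than any stromal marker tested. In the macrophage list 4 markers had a negative log2 fold change and 11 had a positive value. Emr1, the older symbol of Adgre1, was at 305 ± 21.9 and 350 ± 13.1 RPKM (adjusted p = 0.0624 from limma), and Ptprc at 52.6 ± 4.57 and 53.0 ± 6.04 RPKM (adjusted p = 0.949). The median of the macrophage list lay between 0 and the values of P2rx4 (0.42) and Panx1 (0.86). The part of these cell types in the changes of P2rx7, P2rx4 and Panx1 was not tested.

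Defining markers of several other cell types were low. The 5 markers of B and T cells summed to at most 0.109 RPKM in any library. Of the 6 neutrophil markers 1 was tested, S100a8, and it rose, while S100a9 was listed at the lowest value of 0.001 RPKM in all 6 libraries, and the 6 neutrophil markers summed to 1.87 to 2.23 RPKM in the controls and 9.26 to 16.2 RPKM in the siRNA libraries. The 4 endothelial markers summed to 2.04 to 2.58 RPKM and 1.21 to 1.34 RPKM, with 1 of 3 tested lower and 1 higher. Of the 5 neuronal and glial markers, Snap25 did not exceed 0.037 RPKM, and Tubb3, which many cultured cells express, was the one tested and fell. Pf4, a platelet gene that macrophages also express, rose from 235 ± 52.4 to 603 ± 55.8 RPKM (SD, n = 3 each), while Itga2b, which defines the megakaryocyte lineage, did not exceed 0.17 RPKM. Of the 5 megakaryocyte and platelet markers 3 were tested and 2 rose. Beside these counts, 29.8% of all genes tested were called lower and 14.7% higher.

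**Figure D3:**
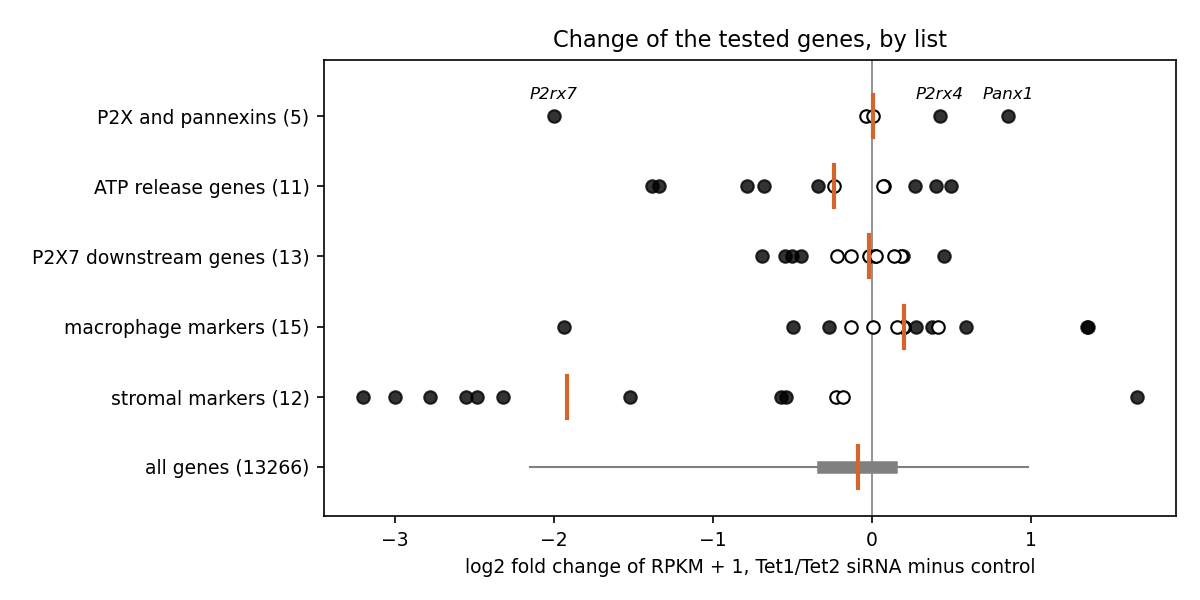
Log2 fold change of RPKM + 1 (Tet1/Tet2 siRNA minus control) of each tested gene of 5 lists, with filled points for an adjusted p under 0.05 and an orange bar at the list's median. For all 13266 genes the thick bar spans the interquartile range and the thin line the 1st to 99th percentile. P2rx7 (-2.00) lies within the wide range of the stromal markers and just below the lowest macrophage marker, Fcgr1 (-1.93). P2rx4 (0.42) and Panx1 (0.86) lie above the median of the macrophage markers.

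P2rx7 and P2rx4 are neighbours. P2rx4 begins 16111 bp after the end of P2rx7 on the same strand (chromosome 5, 122707544 to 122729738). Of the 10 nearest tested genes, 5 on each side, P2rx4 alone was higher with a limma adjusted p under 0.05. Ift81, a ciliary transport gene 29392 bp before P2rx7, fell from 1.93 ± 0.260 to 0.806 ± 0.228 RPKM (SD, n = 3 each, log2 fold change -0.70, adjusted p = 0.00157 from limma). Anapc5, a subunit of the anaphase-promoting complex, fell by 0.36 on the log2 scale (adjusted p = 0.0017) and Rnf34, a ubiquitin ligase gene, fell by 0.54 (adjusted p = 0.000473 from limma). Atp2a2, a calcium pump gene (log2 fold change -0.26, adjusted p = 0.0226), and Anapc7 (-0.18, adjusted p = 0.0395) were lower too. Atp2a2 lost its call without siRNA replicate 1 (adjusted p = 0.0905) or siRNA replicate 2 (adjusted p = 0.0755), and Anapc7 kept it only without control replicate 1 (adjusted p = 0.045). Neither passed under median-ratio scaling (adjusted p = 0.135 and 0.434) or quantile normalization (adjusted p = 0.145 and 0.511). Camkk2, Kdm2b, Arpc3 and Gpn3 did not pass, with log2 fold changes of -0.23, -0.22, 0.13 and 0.08. Camkk2 varied from 5.91 to 16.2 RPKM over the 6 libraries. In all, 6 of the 10 neighbours were called, against 44.5% of all genes tested.

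**Figure D4:**
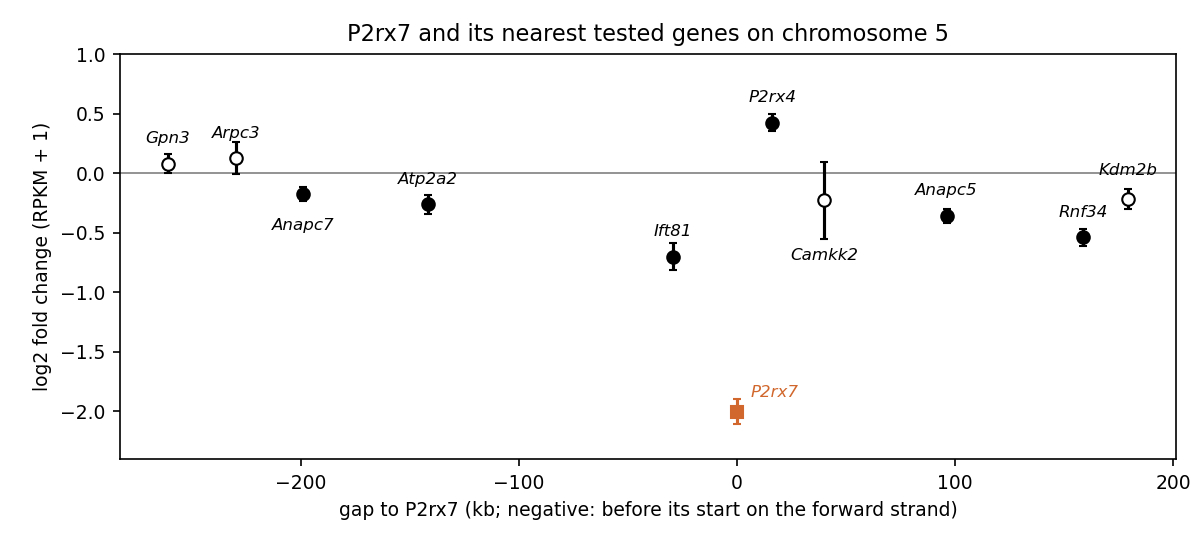
Log2 fold change of RPKM + 1 of P2rx7 (orange square) and of its 5 nearest tested genes on each side, against the gap to P2rx7 in kb on GRCm38, with standard errors as bars and filled symbols for an adjusted p under 0.05. P2rx7 lies at -2.00, its neighbour P2rx4 at 0.42, and the other genes between -0.70 and 0.13.

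Other genes of the ATP pathway were taken from 3 lists. Of 16 genes of other ATP release channels and transporters, 15 were in the table and 11 were tested, of which 5 fell and 3 rose, against 29.8% and 14.7% of all genes tested, and the median log2 fold change was -0.24 against -0.09 over all genes. The counts were 4 lower and 3 higher under median-ratio scaling, 4 and 4 under quantile normalization, with Slc17a9 added, and 5 and 1 with libraries rescaled to the same sum. The largest decreases were those of Fam26e (Calhm5), from 4.26 ± 0.356 to 1.05 ± 0.415 RPKM, and Slco2a1, a prostaglandin transporter and part of an anion channel that passes ATP, from 7.21 ± 0.850 to 2.30 ± 0.796 RPKM. Gjc1, the gene of connexin 45, fell by 0.78 and Fam26f (Calhm6) fell by 0.68 on the log2 scale (adjusted p = 0.00322 and 0.00198 from limma). The subunits of the volume-regulated LRRC8 channel moved apart. Lrrc8d rose from 11.8 ± 1.01 to 17.02 ± 0.484 RPKM (adjusted p = 0.00126 from limma) and Lrrc8b from 3.12 ± 0.471 to 4.43 ± 0.154 RPKM (SD, n = 3 each, adjusted p = 0.0131, and 0.0569 with libraries rescaled to the same sum). Lrrc8a was higher (0.27) and Lrrc8c lower (-0.34), and both calls were lost under another scaling and in most fits without 1 library, with adjusted p of 0.00695 to 0.104 and of 0.0207 to 0.122 over the 6 fits. Gja1, the gene of connexin 43 and the leading gap junction gene of bone cells, was at 9.45 ± 0.333 and 7.97 ± 1.69 RPKM (adjusted p = 0.178). Slc17a9, which loads ATP into vesicles, was at 3.51 ± 0.505 and 3.71 ± 0.148 RPKM (SD, n = 3 each, adjusted p = 0.617 from limma).

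Of 5 genes of enzymes that open pannexin-1 or P2X7, 4 were in the table and 3 were tested. All 3 were called lower, against 29.8% of all genes tested. The 3 became 1 under median-ratio scaling and quantile normalization. Casp4, the murine caspase-11, fell from 14.1 ± 0.947 to 6.51 ± 0.529 RPKM (SD, n = 3 each, log2 fold change -1.01, adjusted p = 5.9e-05 from limma). Art2b, which ADP-ribosylates P2X7 on T cells, did not exceed 0.02 RPKM.

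Of 14 genes downstream of P2X7, 13 were tested, of which 4 fell and 2 rose, against 44.5% of all genes tested called in either direction, and the median log2 fold change was -0.02. Median-ratio scaling and quantile normalization each gave 4 lower and 4 higher, with the potassium channel genes Kcnk6 and Kcnk13 added, and rescaling to the same sum gave 5 lower and 1 higher, with Smpd1 added and Adam17 lost. Nlrp3, the inflammasome sensor of potassium efflux, fell from 6.67 ± 0.347 to 3.76 ± 0.361 RPKM, Casp1, which it activates, from 74.5 ± 8.28 to 50.6 ± 2.98 RPKM, and Il18, a substrate of caspase-1, from 17.1 ± 0.390 to 12.3 ± 0.606 RPKM (SD, n = 3 each, adjusted p = 0.000512, 0.00152 and 0.00103 from limma). Pla2g4a, a cytosolic phospholipase, fell from 22.5 ± 0.476 to 15.6 ± 1.41 RPKM (adjusted p = 0.00108). Ano6, a lipid scramblase gene, rose from 38.6 ± 1.19 to 53.1 ± 1.62 RPKM (SD, n = 3 each, adjusted p = 0.000374 from limma). Adam17, a sheddase, was higher by 0.19 on the log2 scale (adjusted p = 0.023), which was lost with libraries rescaled to the same sum (adjusted p = 0.162) and held only without control replicate 3 (adjusted p = 0.0186) or siRNA replicate 2 (adjusted p = 0.0456) among the fits that left out 1 library. Pycard, the inflammasome adaptor, and Nek7, which binds NLRP3, had log2 fold changes of 0.02 and -0.02 (adjusted p = 0.93 and 0.82). Il1b was at 0.029 to 0.117 RPKM and was not tested. Over the 3 lists, 17 of the 27 genes tested passed, 12 lower and 5 higher, where 29.8% of all genes tested were lower and 14.7% higher. This balance moved with the scaling, to 9 lower and 7 higher with median ratios, 9 lower and 8 higher with quantile normalization and 13 lower and 2 higher with libraries rescaled to the same sum.

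**Figure D5:**
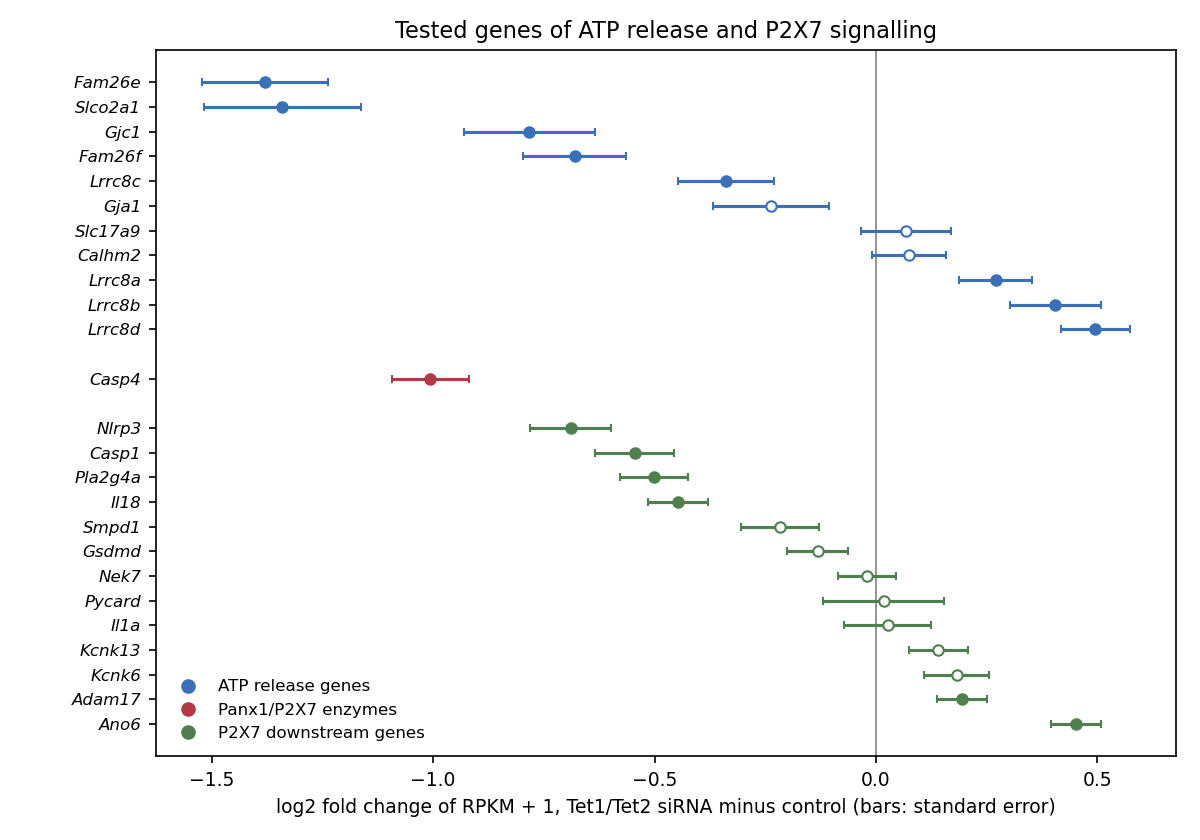
Log2 fold change of RPKM + 1 (Tet1/Tet2 siRNA minus control) with its standard error for the tested genes of ATP release (blue), for Casp4 among the enzymes that open pannexin-1 or P2X7 (red) and for the tested genes downstream of P2X7 (green), with filled points for an adjusted p under 0.05. The values run from -1.38 for Fam26e to 0.49 for Lrrc8d, and none reaches the -2.00 of P2rx7.

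The genes whose profile over the 6 libraries was most like that of P2rx7 were Kng2, Gas1, Bicc1, Tgfb1i1 and Tbx15, by the root mean square difference of log2(RPKM + 1) centred on each gene's mean, among 11067 genes averaging 1 RPKM or more. Symbols that begin with a digit were counted in the 11067 but passed over in this choice, so a closer profile among them would not be listed. The difference was 0.0362 for Kng2, which was at 4.95, 4.19 and 4.81 RPKM in the controls and at 0.153, 0.559 and 0.559 RPKM in the siRNA libraries. For the other 4 it lay between 0.0833 and 0.0927. Tgfb1i1, a focal adhesion gene, had levels closest to those of P2rx7, with 34.6 ± 2.57 RPKM in the controls and 7.46 ± 1.75 RPKM in the siRNA libraries (SD, n = 3 each), and Tbx15, a mesenchymal transcription factor gene, was at 8.10 ± 1.11 and 1.25 ± 0.319 RPKM. The likeness is dominated by the difference between the groups in log2(RPKM + 1). This was -2.09 to -1.96 for the 5 genes and -2.00 for P2rx7. The fold differences of the group means were less alike. They were 10.98 for Kng2, 11.99 for Gas1, 6.30 for Bicc1 and 6.47 for Tbx15, against 4.63 for Tgfb1i1 and 4.39 for P2rx7. The added 1 shrinks changes at the low levels of Kng2 and Gas1 after siRNA, so their likeness to P2rx7 holds for this scale.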

How the data were processed

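RNA of 3 control and 3 Tet1/Tet2 siRNA-treated BMMSC cultures was sequenced as paired-end reads of 100 bases. The authors trimmed adaptors, mapped to GRCm38, estimated abundance with DNASTAR Lasergene and deposited linear RPKM (FPKM in the methods). Annotation release, use of strand and multi-mapped reads are not given in the sources used here. The table's p-value column, the authors' own comparison, was not used.

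Of rows sharing a symbol (37 symbols), the most abundant was used. Log2(RPKM + 1) was fitted with limma 3.58.1 (eBayes with trend) in R 4.3.3 in genes averaging 0.1 RPKM or more, two-sided, with Benjamini-Hochberg adjustment. A smaller pseudocount enlarges fold changes of low genes. The pseudocount, filter, scaling, variance, call rule, pairing and libraries were varied. The fits were also run on simulated data. That outcome is not reported here, and no result above rests on it. Depth and promoters were examined in Python 3.11.15 (numpy 2.4.6, pandas 2.3.3), with transcript lengths from GENCODE M21. Figures were drawn with matplotlib 3.10.9. At a depth fixed beforehand, 20% of low values would lie within 0.1 of a whole number, and here the depth was chosen for its match.

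Named genes were all members, the 6 pathway genes per list with the lowest p, the 5 nearest tested genes on each side, the 5 most similar profiles and defining markers, and a few others named after their values were seen. Some genes under this rule are not reported here. The members and lists were chosen with earlier results of these data known. Deviations from the group means correlated between same-numbered replicates with r = 0.149, 0.117 and 0.462 across genes, all over 0.1, so an additional fit blocked on replicate number, although control replicate 1 with siRNA replicate 2 gave 0.332 and no source says what a number stands for.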

Additional observations from a re-analysis of the deposited data

How the results depend on the processing

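The adjusted p under 0.05 and the direction of P2rx7, P2rx4 and Panx1 held in all 17 alternatives run for each, with log2 fold changes of -2.15 to -1.87, 0.36 to 0.54 and 0.82 to 0.98. Of the alternative values computed, 245 kept their direction and side of the threshold, or stayed near the reported count or value, 6 counts moved by more than 1.5 times and 5 values changed sign. The 3 members called became 1 by an unadjusted p and the 2-fold threshold. The 4 members differing from P2rx7 became 9 without a filter on low values and 2 in genes averaging 1 RPKM or more, which change the number of members tested. Called genes of ATP release went from 8 to 4 without a filter, and called enzymes from 3 to 1 under median-ratio scaling and quantile normalization. P2rx5 changed sign under quantile normalization (from -0.04 to 0.047) and P2rx6 with libraries rescaled to the same sum (from 0.0039 to -0.0077) and without control replicate 2 or siRNA replicate 2 or 3, within a range of -0.051 to 0.033 over the fits without 1 library, all with adjusted p over 0.05. The cause was not tested. A pseudocount of 0.01 gave -0.39 for P2rx5 and 0.10 for P2rx6. Among all genes called, 66.9% were lower, against 50.7% under median-ratio scaling, 42.1% under quantile normalization and 74.2% with libraries rescaled to the same sum.

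With the replicate block the log2 fold change of P2rx7 was -2.00 (adjusted p = 3.87e-06 from limma), 3 members were called and 4 differed from P2rx7. The pairing changed no call of a member. Leaving out one library gave 3 members called in each fit and a difference of the P2rx7 share of -23.2 to -21.2 percentage points. Depth limits what can be said of the 5 members not tested.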
